A study of Drosophila melanogaster with 21 samples.

Results

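The mitochondrial ribosomal proteins of Drosophila melanogaster are described here as all protein-coding genes whose symbol begins with mRpL (large subunit) or mRpS (small subunit). Of 73 such genes in the dm6 annotation, 71 matched a row of the count table, out of 17558 genes in all. The X carries 11 of them, 8 of the large and 3 of the small subunit, and the autosomes carry 60, 39 large and 21 small. The arms 2L and 2R hold 12 each, 3L holds 15, 3R holds 21 and chromosome 4 none. The X-linked share of the family, 15.5%, is close to the 15.6% of all protein-coding genes in the table. The remaining 2, mRpS34 and mRpS5, were not analysed here because their identifiers did not match.

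The mitochondrial ribosome is built inside the mitochondrion from ribosomal RNAs that the mitochondrial genome encodes and from proteins that are all encoded in the nucleus, made in the cytosol and imported. It translates the few proteins of the respiratory chain that the mitochondrial genome encodes. Because its proteins join in fixed proportions, genes on the X and on the autosomes contribute to one particle. In male flies the MSL complex binds the single X and raises its transcription, so that X-linked genes keep pace with autosomal ones.

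Poly-A RNA was sequenced from the wing imaginal discs, epithelial sacs that become the adult wing, of male larvae in the third instar, reared at 25 °C. The mutants, called null in the labels, carried the msl-2 allele of the titles' msl2_227 (4 libraries), the msl-1 allele L60 (3 libraries), the mle allele 9 (3 libraries), or roX1.SMC17A with roX2delta (3 libraries). Heterozygous controls carried the same alleles of msl-2 (3 libraries), of msl-1 (3 libraries) or of mle (2 libraries) over CyO-GFP, a balancer of chromosome 2, which the mutants lack. The msl-2, msl-1 and mle genes encode proteins of the complex, and roX1 and roX2 its non-coding RNAs. The labels give no controls for the roX1 roX2 mutants, which were set against the mean of the 3 heterozygous groups; their comparison therefore shares control libraries with the other 3. Each allele came from 1 stock, and nothing in the labels says which libraries came from separate cultures, so p values measure only the spread between these libraries.

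Total counts ran from 1388848 to 4131600 in 20 libraries and were 830905 in the msl-1 heterozygous replicate 2. That library had the highest mitochondrial share of counts (6.17%) and a median correlation of 0.514 with its own group, and its summed level of the family was 3906 TPM (transcripts scaled to a fixed library total, a level per length), against 7769 to 9395 elsewhere. It was left out of the values below, and results with all 21 libraries are given beside them. The roX2 RNA was at 0 counts in all roX1 roX2 mutants. It averaged 2.61, 0.456 and 2.26 CPM (counts scaled to a fixed library total, with no division by length) in msl-2, msl-1 and mle mutants. Their heterozygous controls averaged 292, 157 and 326 CPM. The roX1 RNA averaged 50.5 CPM in roX1 roX2 mutants. It averaged 1735, 130 and 104 CPM in msl-2, msl-1 and mle mutants, against 2664, 3414 and 3720 in their heterozygous controls. The msl-2 transcript averaged 54.5 CPM in msl-2 mutants against 102 in their controls. By contrast, msl-1 averaged 134 CPM in msl-1 mutants against 85.7, and mle 235 CPM in mle mutants against 147. Transcript level does not check those 2 labels. Wing disc markers such as vg and nub were expressed in every group, with summed levels from 1003 to 2025 CPM.

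In the 7 heterozygous libraries the X-linked genes supplied between 14.9% and 17.5% of the family's summed TPM, and in the 13 mutant libraries between 10.7% and 13.6%. The ranges of controls and mutants did not overlap in any of the 4 comparisons. By group, the share was 16.2% ± 0.594 (SD, n = 3) in msl-2 heterozygotes and 12.6% ± 0.811 (SD, n = 4) in msl-2 mutants. It was 15.1% ± 0.329 (SD, n = 2) in msl-1 heterozygotes and 11.2% ± 0.468 (SD, n = 3) in msl-1 mutants. The mle heterozygotes were both at 17.5%, and the mle mutants had 11.4% ± 0.345 (SD, n = 3). The roX1 roX2 mutants, at 12.7% ± 0.571 (SD, n = 3), lay below all 7 heterozygous libraries. The difference was thus larger than the spread between replicates in each stock. The library that was left out, although heterozygous by its label, had 11.5%, a value inside the range of the mutants. The summed level of the whole family overlapped between mutants and controls in the msl-2, mle and roX1 roX2 comparisons. In msl-1 the mutants, at 8974 to 9395 TPM, lay above the heterozygotes, at 8364 and 8922 TPM. The mixture of X-linked and autosomal transcripts thus differed in every comparison, whereas the family total was apart in msl-1 only.

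**Figure D1:**
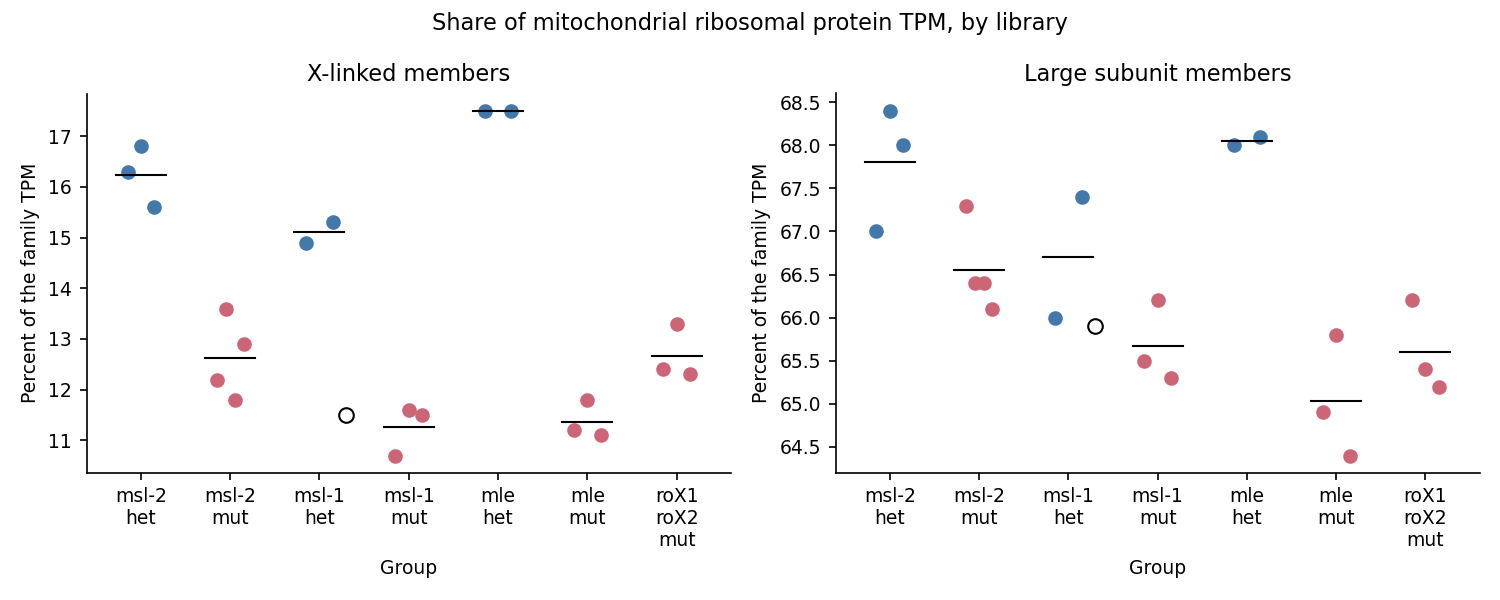
Percent of the family's summed TPM that came from X-linked members (left) and from large subunit members (right), 1 point per library, blue for heterozygous and red for mutant libraries, with group means as lines; neither axis starts at 0. The open circle is the msl-1 heterozygous replicate 2, left out of the means. X-linked shares ran from 14.9% to 17.5% in heterozygous and from 10.7% to 13.6% in mutant libraries, whereas large subunit shares overlapped in msl-2 and msl-1 and were apart in mle, at 68% and 68.1% against 64.4% to 65.8%.

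Of the 71 genes, 70 had enough counts to be tested. The exception, mRpL53 on 2R, had 0 counts in all 21 libraries; all of its exon bases lie within exons of CG33155 on the same strand, so reads there may have been assigned to neither gene. Levels of X-linked and autosomal members were alike, as the median TPM over heterozygous libraries was 112 for X-linked and 107 for autosomal genes. The highest levels were those of mRpS18A (361 TPM), mRpL34 (327 TPM), mRpL52 (215 TPM) and the X-linked mRpL16 (214 TPM), and the lowest non-zero ones those of mRpL17 (51.6 TPM), mRpS18B (51.1 TPM) and mRpL13 (49.1 TPM). Exons of 42 members overlap those of another gene, by more than 10% of their bases in 10 members, among them mRpL13, mRpL17 and the X-linked mRpS14. Whether reads were counted by strand is not given in the sources used here, so the levels of these 10 are uncertain.

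In msl-2 mutants, X-linked members had lower levels in every mutant library than in every heterozygous library of the same stock, for 11 of 11 genes. Over all X genes tested, 42.6% were separated in this way. Called at an adjusted p under 0.05 in edgeR's quasi-likelihood test were 5 of 11, all lower (mRpL14, mRpL22, mRpL16, mRpS14 and mRpL30), where 24.8% of the 1560 X genes tested were called lower and 1.22% higher. Their median log2 fold change was -0.60, or 66.1% of the heterozygous level, against -0.33 for all X genes tested. Among the 59 autosomal members 1 was called lower and none higher, against a background of 4.52% lower and 3.38% higher. At an unadjusted p under 0.05 there were 11 members lower and 0 higher, where 1030 of the 8466 autosomal genes tested were lower and 1114 higher. Of the 4162 autosomal genes within the members' range of exon length (327 to 2078 bases), 586 were lower and 399 higher at that threshold. The median of the autosomal members was -0.20, with 52 of 59 below 0, while that of all autosomal genes was 0.04. The count of 6 called members fell to 2 without the msl-2 heterozygous replicate 1, without replicate 2 of that group or without the msl-2 mutant replicate 3, and to 3 without the msl-2 mutant replicate 1 or replicate 2.

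The mRpL16 protein is a homologue of a bacterial protein of the large subunit that sits near the peptidyl transferase centre. Its gene lies on the X at 1890256 to 1891482 of dm6, plus strand, with 3 exons, of which 7.62% of bases overlap the antisense gene arm. In msl-2 heterozygous libraries it stood at 141, 142 and 134 CPM and in msl-2 mutants at 88.8, 87.8, 89.8 and 92.7 CPM. The mutant libraries were within a few CPM of one another and all below the controls (log2 fold change -0.61 ± 0.11 SE, edgeR adjusted p = 0.00137). Values in msl-1 were 124 and 121 CPM in heterozygotes and 64.6, 75.5 and 80 CPM in mutants (log2 fold change -0.75 ± 0.14 SE, edgeR adjusted p = 3.23e-04). The mle heterozygotes had 157 and 133 CPM and the mle mutants 62.9, 63.3 and 60.3 CPM (log2 fold change -1.20 ± 0.13 SE, edgeR adjusted p = 2.29e-06). The mutants of both stocks again lay below all of their controls. In roX1 roX2 mutants mRpL16 had 87.4, 94.2 and 99.4 CPM, below each of the 7 heterozygous libraries (log2 fold change -0.51 ± 0.10 SE, edgeR adjusted p = 0.00142). It was the only member called in all 4 comparisons, and it was called again in each of them whichever 1 of the 20 libraries was left out. With all 21 libraries it was called in none, with log2 fold changes of -0.65, -0.22, -1.23 and -0.37 in mutants of msl-2, of msl-1, of mle and of roX1 roX2.

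mRpL14, another large subunit gene, with a single exon (X, 2343997 to 2344649 of dm6, minus strand), encodes a homologue of a bacterial protein at the interface between the subunits and overlaps no other exon. It had 52.5, 68.7 and 55.5 CPM in msl-2 heterozygotes and 37.7, 33, 27.7 and 28.1 CPM in msl-2 mutants. These groups were apart, with a log2 fold change of -0.88 ± 0.20 (SE, edgeR adjusted p = 0.00582). The mle heterozygotes had 77.9 and 69.9 CPM and the mle mutants 36.3, 40.9 and 22.3 CPM, a log2 fold change of -1.14 ± 0.23 (SE, edgeR adjusted p = 0.00156). In msl-1, 50.3 and 59.5 CPM in heterozygotes stood against 30.4, 41.3 and 28.2 CPM in mutants (log2 fold change -0.73 ± 0.24 SE, edgeR adjusted p = 0.0343). All mutant libraries of these stocks lay below their controls, but the msl-1 call was kept in only 14 of the 20 fits that left out 1 library. It was not made with DESeq2, with no expression filter or with all 21 libraries, where the log2 fold change was -0.24. The roX1 roX2 mutants had 52.4, 50 and 35.9 CPM, overlapping the controls, with a log2 fold change of -0.40 ± 0.18 (SE) that was not called.

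Of the 3 X-linked genes of the small subunit, mRpS14 was the one with calls. Its gene lies at 19479382 to 19480238 of dm6, minus strand, and 35.8% of its exon bases are shared with Naa15-16 on the other strand and CG32533 on its own, so its counts are uncertain. It had 52.7 and 54.1 CPM in mle heterozygotes and 15.6, 25.8 and 19.4 CPM in mle mutants. This log2 fold change, -1.36 ± 0.23 (SE, edgeR adjusted p = 3.11e-04), was the lowest of any member in any of the 4 comparisons, and the groups did not overlap. In msl-2 it had 54.2, 62.3 and 43.4 CPM in heterozygotes and 38.1, 37.6, 30.3 and 33.2 CPM in mutants (log2 fold change -0.60 ± 0.19 SE, edgeR adjusted p = 0.0439). The msl-2 call was kept in 13 of the 20 fits that left out 1 library. It was not made with DESeq2 or with TMM on all genes. The roX1 roX2 mutants had 26.7, 38 and 21.3 CPM (log2 fold change -0.76 ± 0.18 SE, edgeR adjusted p = 0.00619). In msl-1 mutants, 28.8, 37.5 and 32.9 CPM stood against 45.1 and 37.7 CPM, a difference that was not called (log2 fold change -0.33 ± 0.24 SE). The lowest heterozygous msl-1 library was just above the highest mutant one.

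mRpL3, a homologue of a bacterial protein that reaches towards the peptidyl transferase centre, had 66.5 and 56.1 CPM in mle heterozygotes and 27.7, 34 and 28.7 CPM in mle mutants. The mutants held 50.1% of the heterozygous level (SE 0.18 on the log2 scale, edgeR adjusted p = 4.80e-04). It was also called lower in roX1 roX2 mutants, which had 37.7, 34.3 and 34.4 CPM, below all heterozygous libraries (log2 fold change -0.55 ± 0.14 SE, edgeR adjusted p = 0.0101). In msl-2 it had 55.9, 60.1 and 47.2 CPM in heterozygotes and 44.2, 40.1, 30.3 and 45.2 CPM in mutants, and it was not called there (log2 fold change -0.43 ± 0.15 SE, edgeR adjusted p = 0.0639).

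Each of the other 4 X-linked members with calls was called in a single comparison. mRpL22, whose bacterial homologue lines the exit tunnel, had 102 to 115 CPM in msl-2 heterozygotes and 47.2 to 80.6 CPM in msl-2 mutants (log2 fold change -0.75 ± 0.20 SE, edgeR adjusted p = 0.0191). This call was kept in 16 of the 20 fits that left out 1 library. mRpL30 was called in msl-2 mutants (log2 fold change -0.57 ± 0.18 SE, edgeR adjusted p = 0.0427). Its call was kept in 16 of the 20 fits that left out 1 library. It was not made with DESeq2, with TMM on all genes or in the fit of only the groups compared. mRpL49, a subunit that bacteria lack, was called in mle mutants (log2 fold change -0.79 ± 0.23 SE, edgeR adjusted p = 0.0246) and missed the threshold in msl-2 mutants at an adjusted p of 0.0501 by the same test. The mle call was kept in 17 of the 20 fits that left out 1 library. It was not made in the fit of only the groups compared. mRpL38, another protein that bacterial ribosomes lack, was called in roX1 roX2 mutants (log2 fold change -0.57 ± 0.18 SE, edgeR adjusted p = 0.0384), which had 32 to 41.5 CPM; the msl-1 heterozygous replicate 3 had 27.2 CPM, below all 3 mutants, and the other heterozygous libraries lay above them. That call was kept in 15 of the 20 fits that left out 1 library, and was not made with TMM on all genes, with no expression filter, in the fit of only the groups compared or with all 21 libraries.

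No call fell on mRpL33, mRpS25 or mRpS30 in any of the 4 mutants. mRpL33 was the gene with the lowest counts on the X, 12 to 74 per library, and its standard errors ran from 0.30 to 0.40 on the log2 scale. Its log2 fold changes were -0.72, -0.65, -0.64 and -0.46 in mutants of msl-2, of msl-1, of mle and of roX1 roX2. For mRpS25 they were -0.73, 0.20, -0.50 and -0.42, and for mRpS30 -0.41, -0.02, -0.57 and -0.45. A missing call does not show that these 3 genes kept their level: in msl-2 mutants mRpS25, at 24.7 to 47.2 CPM against 54.8 to 70.2, and mRpS30, at 58.8 to 97.3 CPM against 99.5 to 117, did not overlap their controls.

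**Figure D2:**
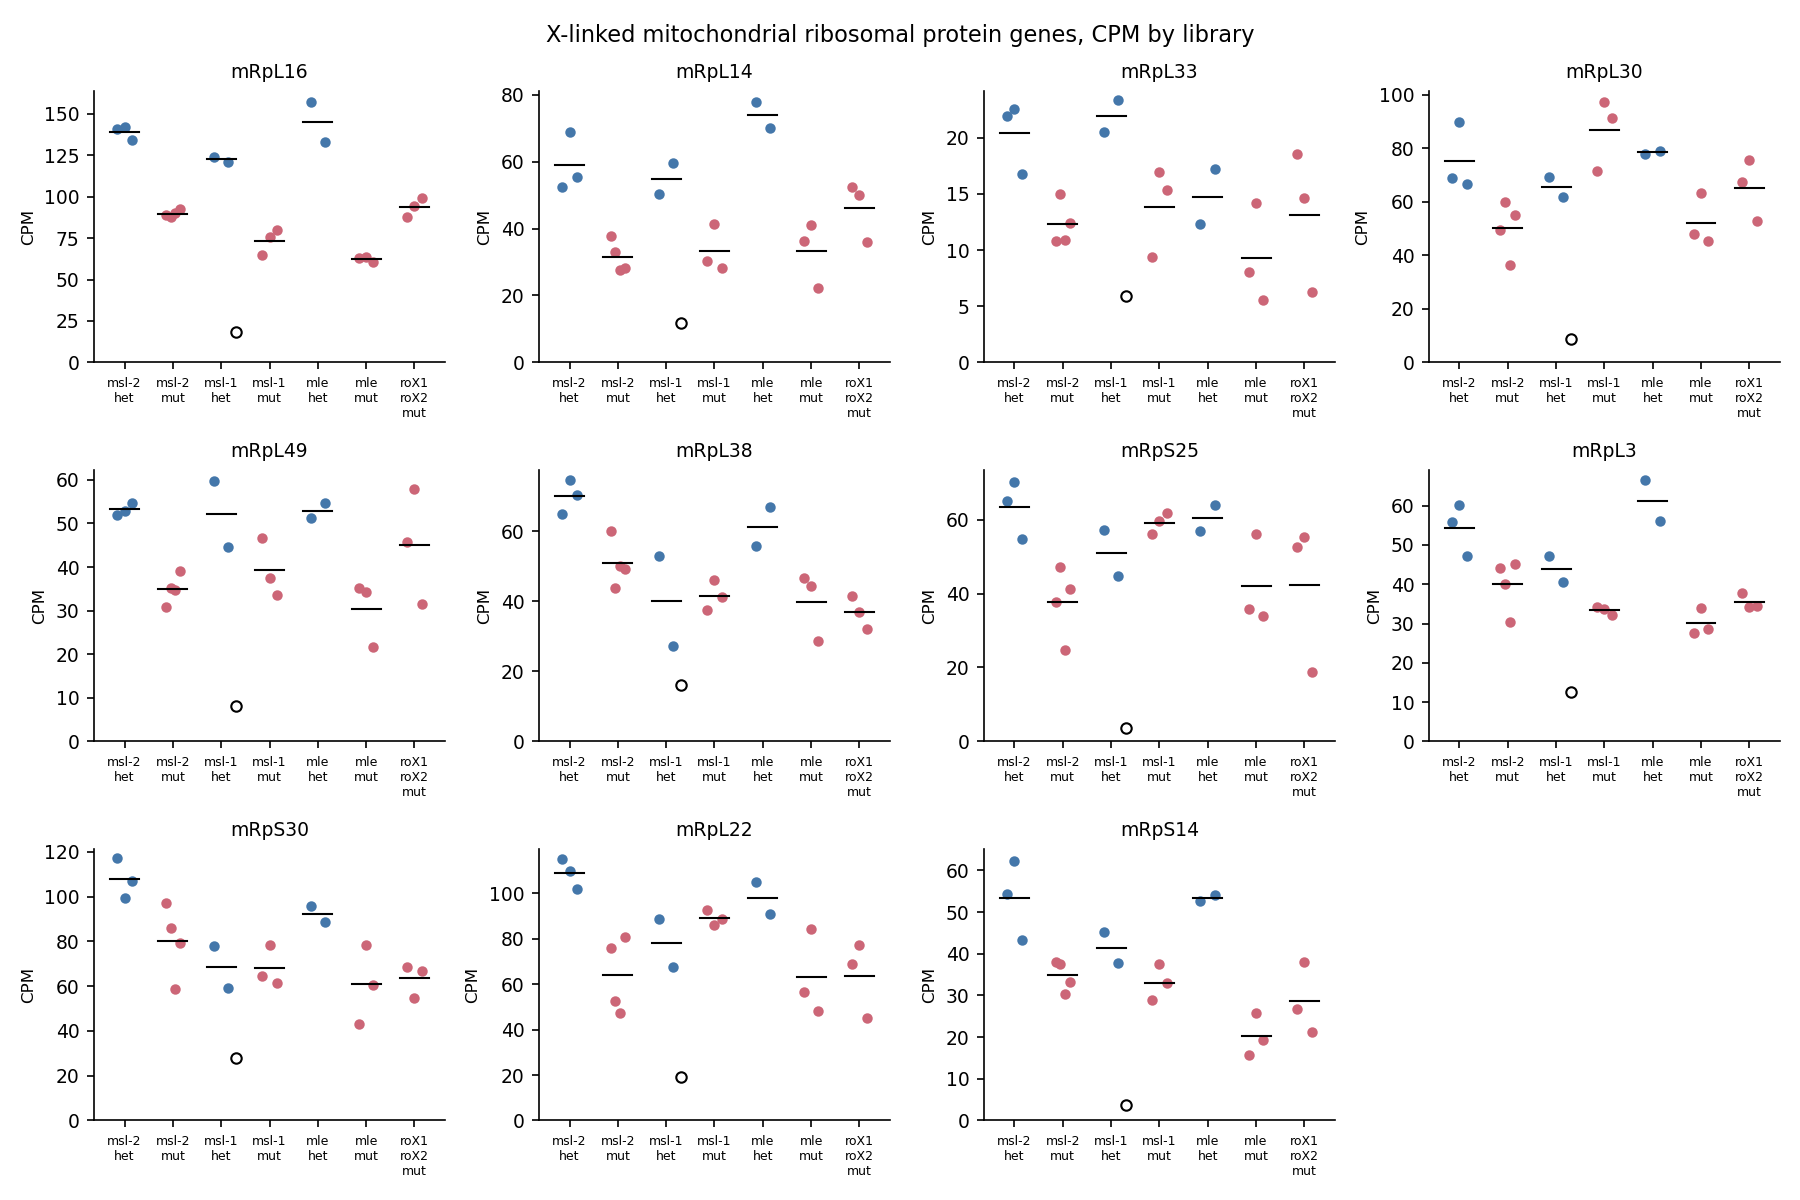
Levels of the 11 X-linked members in CPM, 1 point per library, blue for heterozygous and red for mutant libraries, with group means as lines and the left-out msl-1 heterozygous replicate 2 as an open circle. For mRpL16 the mutants of every stock sit below all heterozygous libraries drawn in blue; for mRpL30 the msl-1 mutants, at 71.6 to 97.1 CPM, sit above their controls at 61.9 and 69.2 CPM.

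In mle mutants, 5 of 11 X-linked members were called lower and none higher, where 36% of X genes were called lower and 0.897% higher. The median log2 fold change of the 11 was -0.64, or 64.2% of the heterozygous level, against -0.57 for all X genes. For 10 of 11 the mutant and heterozygous libraries were apart, against 61.9% of X genes. Of the 59 autosomal members edgeR called 0 and DESeq2 0, against a background of 4.65% of autosomal genes called higher and 4.04% lower. At an unadjusted p under 0.05, 1 member was higher and 7 were lower, where 883 of the 8466 autosomal genes tested were higher and 752 lower. Their median was -0.07. The mle mutant replicate 2 had the highest autosomal member levels of its group: without it 12 members were called, 8 X-linked and 4 autosomal, all lower.

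In roX1 roX2 mutants, 4 of 11 X-linked members were called lower and none higher, with a background of 25.9% of X genes lower and 3.4% higher. Their median log2 fold change was -0.46, with a range from -0.76 to -0.14. For 2 of 11 all mutants lay below all 7 heterozygous libraries, against 16.8% of X genes. Among autosomal members mRpL41 on 2R, a protein of the large subunit, was called lower, against 4.15% of autosomal genes lower and 7.44% higher. It had 46.8, 27.6 and 43.2 CPM in the mutants and 49.7 to 80 CPM in the 7 heterozygous libraries (log2 fold change -0.61 ± 0.16 SE, edgeR adjusted p = 0.0138). The median of the autosomal members was -0.03. Without the mle heterozygous replicate 2, or without the roX1 roX2 mutant replicate 4, 3 members were called in place of 5.

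In msl-1 mutants, 11 of the 59 autosomal members were called higher and 0 lower, where 11.6% of autosomal genes were called higher and 10.4% lower. With no adjustment of p, 14 members were higher and 0 lower at the same threshold, where 1463 of the 8466 autosomal genes were higher and 1498 lower. Of the 4162 autosomal genes within the members' range of exon length, 785 were higher and 509 lower without adjustment. Of these genes, 506 were called higher and 287 lower. DESeq2 called 13 members higher and 0 lower. The autosomal members had a median log2 fold change of 0.26, or 119% of the heterozygous level, with 48 of 59 above 0, and the median of all autosomal genes was -0.05. For 29 of 60 autosomal members all 3 mutant libraries lay above both heterozygous libraries, and for none all below, against 26.2% and 24.8% of autosomal genes.

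The called genes were mRpL19, mRpL23, mRpL52, mRpL37, mRpL1, mRpL28 and mRpL17 of the large subunit and mRpS35, mRpS22, mRpS2 and mRpS18A by symbol of the small one, with log2 fold changes from 0.49 to 0.87. mRpL19, on 3R at 8674109 to 8675196 of dm6, is a protein of the large subunit with a bacterial homologue. It had 75.5 and 54.5 CPM in msl-1 heterozygotes and 122, 108 and 129 CPM in msl-1 mutants (log2 fold change 0.87 ± 0.18 SE, edgeR adjusted p = 0.00144). mRpL23, a homologue of a bacterial exit tunnel protein, had 67.6 and 50 CPM against 112, 101 and 94.7 CPM (log2 fold change 0.79 ± 0.19 SE, edgeR adjusted p = 0.00394). mRpS35, a protein of the small subunit without a bacterial homologue, had 68.2 and 52.5 CPM against 96.6, 97.6 and 108 CPM (log2 fold change 0.72 ± 0.20 SE, edgeR adjusted p = 0.00998). In all 3 genes the mutants were above the heterozygotes of their own stock.

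These calls rest on 2 heterozygous libraries, and the msl-1 heterozygous replicate 3 was the lower of them for each of the 11 genes. Without it, 0 autosomal members were called and 1 X-linked one was. Without the msl-1 mutant replicate 1, or without replicate 3 of those mutants, 7 autosomal members were called. Over the 20 fits that left out 1 library, the call of mRpS18A was kept in 9, with log2 fold changes from 0.20 to 0.89. That of mRpL17 was kept in 16, that of mRpL52 in 17, and those of mRpL19, mRpL23, mRpL28 and mRpS35 in 19 each. With no expression filter mRpS18A and mRpL17 were not called, and mRpS18A was not called with all 21 libraries either. With all 21 libraries 16 were called higher, against 14.1% of autosomal genes; in the added library mRpL19 stood at 25 CPM, mRpL23 at 14.7 CPM and mRpS35 at 15.4 CPM, each below every other library.

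Among X-linked members of msl-1 mutants, 2 of 11 were called lower, mRpL16 and mRpL14, and none higher, where 25.3% of X genes were called lower and 4.1% higher. The median of the 11 was -0.33, or 79.7% of the heterozygous level, against -0.44 for all X genes. Values spread from -0.75 for mRpL16 to 0.39 for mRpL30, and 4 of 11 were above 0. For 5 of 11 all mutant libraries lay below both heterozygous ones and for 1 all above, against 45.8% and 10.8% of X genes. Once the left-out library was added, the median of X-linked members turned to 0.22 and that of autosomal members rose to 0.71, so the direction of the X-linked members in msl-1 mutants, taken alone, depends on that library.

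**Figure D3:**
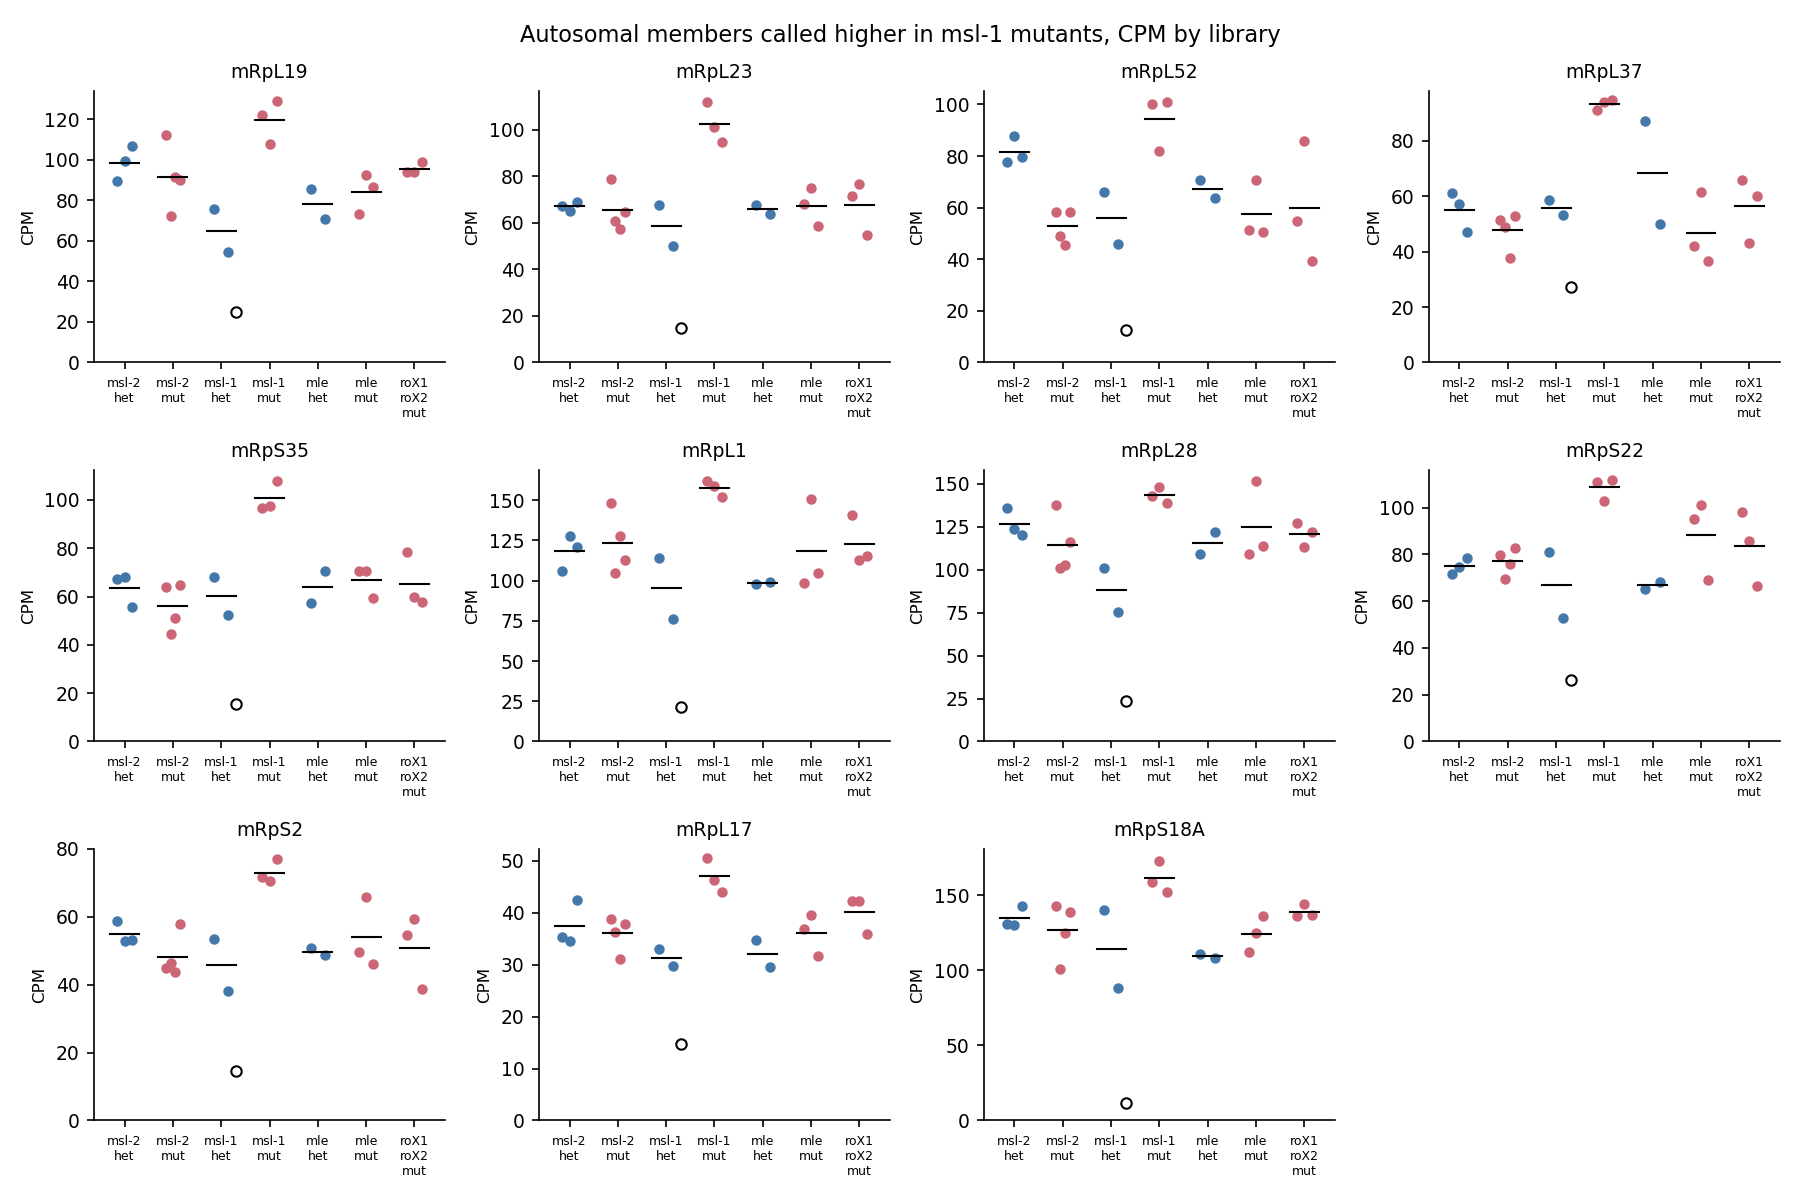
Levels in CPM of the 11 autosomal members called higher in msl-1 mutants, 1 point per library, blue for heterozygous and red for mutant libraries, lines for group means and an open circle for the left-out library. In every panel the 3 msl-1 mutant libraries lie above the 2 msl-1 heterozygous ones; for mRpL19 the values are 108 to 129 against 54.5 and 75.5 CPM.

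The difference between X-linked and autosomal members within each comparison was less dependent on the libraries used. The median log2 fold change of X-linked members minus that of autosomal members was -0.40 without msl-2, -0.58 without msl-1, -0.57 without mle and -0.43 without the roX RNAs. The same difference over all genes tested was -0.37, -0.38, -0.59 and -0.35. Among genes within the members' range of exon length, 327 to 2078 bases, the medians of 638 X genes were -0.41, -0.32, -0.61 and -0.39, and those of 4162 autosomal genes -0.02, 0.08, -0.00 and -0.00, in the same order. In the fit of 21 libraries the members gave -0.40, -0.49, -0.57 and -0.45, and all genes -0.39, -0.16, -0.58 and -0.26. In each setting for which the members' difference was computed, 27 or 28 per mutant with the main one included, it was below 0. Most of these settings left out 1 library at a time, and DESeq2 was not among them. Expressed as a ratio, X-linked members stood at 75.7%, 66.7%, 67.4% and 74% of the change of autosomal members in mutants of msl-2, of msl-1, of mle and of roX1 roX2.

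**Figure D4:**
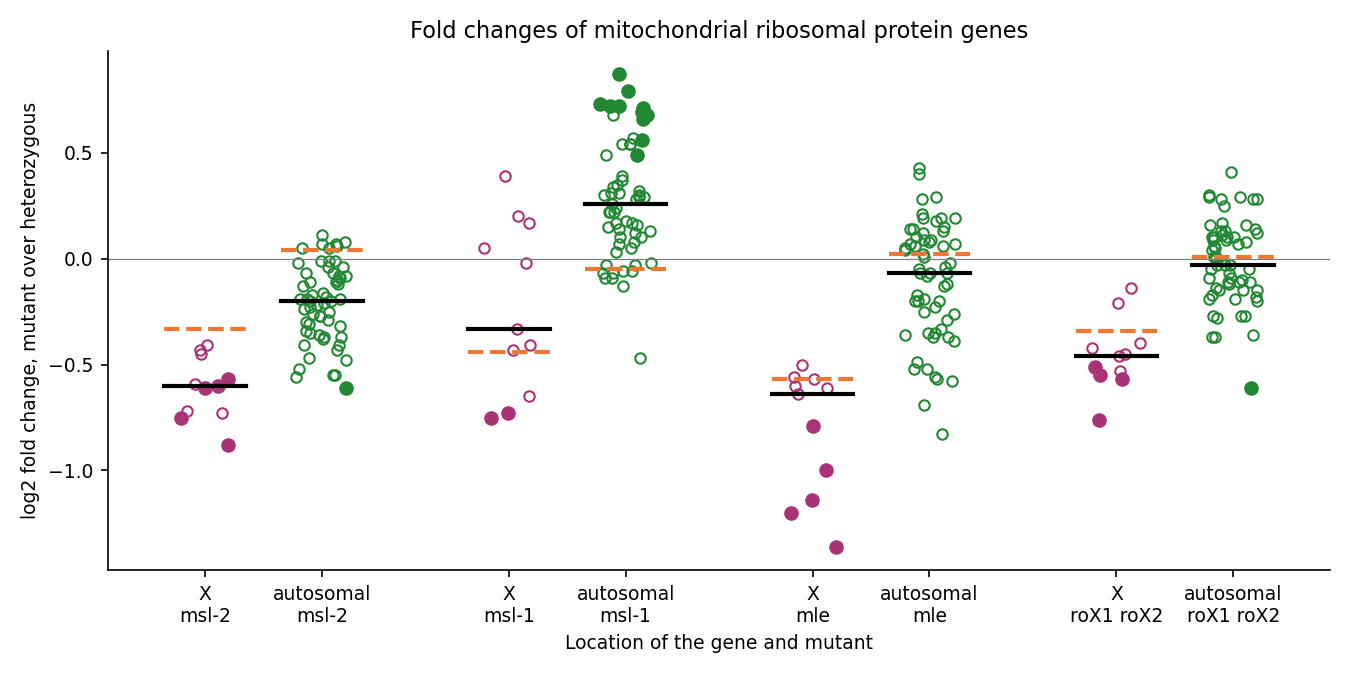
Log2 fold changes of the 70 tested members in each mutant over heterozygous controls, 1 point per gene, split by X and autosomal location; filled points were called, black lines are medians of the members and dashed orange lines medians of all X or autosomal genes tested. X-linked medians lie at -0.60, -0.33, -0.64 and -0.46, and autosomal ones at -0.20, 0.26, -0.07 and -0.03, in mutants of msl-2, of msl-1, of mle and of roX1 roX2.

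One autosomal gene was called in opposite directions. mRpL52 on 2R (7673721 to 7674400 of dm6, minus strand), a protein of the large subunit, had 77.8, 87.9 and 79.6 CPM in msl-2 heterozygotes and 58.4, 48.9, 45.7 and 58.4 CPM in msl-2 mutants. It was called lower there (log2 fold change -0.61 ± 0.20 SE, edgeR adjusted p = 0.0466), a call that was kept in 11 of the 20 fits that left out 1 library. That call was not made with DESeq2, with TMM on all genes, with a replicate block or with all 21 libraries. In msl-1, mRpL52 had 66.1 and 46.1 CPM in heterozygotes and 100, 82.1 and 101 CPM in mutants, and it was called higher (log2 fold change 0.73 ± 0.25 SE, edgeR adjusted p = 0.0349). The msl-1 heterozygotes lay below the msl-2 heterozygotes, and the msl-1 mutants above the msl-2 mutants.

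Whether responses differed between mutants was tested for the 3 stocks that have controls of their own, as the difference of their log2 fold changes. Between msl-1 and msl-2 mutants 9 members were called, all higher in msl-1: 8 of 59 autosomal ones, where 7.49% of autosomal genes were called higher, and mRpL30 of 11 X-linked ones, where 5.9% of X genes were. For mRpL52 the difference was 1.35 ± 0.32 on the log2 scale (SE, edgeR adjusted p = 0.00884), for mRpL19 0.96 ± 0.23 (SE, edgeR adjusted p = 0.0104) and for mRpL28 0.82 ± 0.23 (SE, edgeR adjusted p = 0.0216). All but 2 of 59 autosomal members had a difference above 0. The count of 9 fell to 3 without the msl-1 mutant replicate 2 and to 0 without the msl-1 heterozygous replicate 3. It rose to 14 without the mle mutant replicate 2 and to 15 without the msl-1 heterozygous replicate 1 or the roX1 roX2 mutant replicate 4.

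Between mle and msl-2 mutants edgeR called 0 members and DESeq2 0, where 0.241% of all genes were called. At an unadjusted p under 0.05, 3 members were lower in mle, all X-linked (mRpL16, mRpS14 and mRpL3, of 11), as were 200 of the 1560 X genes tested. For mRpL16 the difference was -0.58 ± 0.17 on the log2 scale (SE, edgeR adjusted p = 0.221). Between msl-1 and mle mutants edgeR called 0 members and DESeq2 0, where 0.521% of all genes were called, and 14 of 70 members were higher in msl-1 at an unadjusted p under 0.05, as were 730 of the 10367 genes tested. Without the mle mutant replicate 2 that count of calls was 4, and without the mle heterozygous replicate 2 it was 1.

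Comparisons that share no control library were also set side by side across genes, as a description. Over the 59 autosomal members, log2 fold changes in msl-2 and mle mutants had a Spearman correlation of 0.68, and over the 11 X-linked ones 0.12. For msl-2 and msl-1 mutants the values were 0.31 and 0.20, and for msl-1 and mle mutants 0.50 and 0.79. Genes are not independent replicates, and all genes of a comparison share its libraries and their depth.

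The share of large subunit genes separated heterozygous from mutant libraries in 1 of the 3 stocks with controls of their own. Large subunit genes supplied 66% to 68.4% of the family's TPM in heterozygous and 64.4% to 67.3% in mutant libraries, ranges that overlap when stocks are pooled. In mle the 2 heterozygotes, at 68% and 68.1%, lay above the mutants, at 64.4% to 65.8%. The groups overlapped in msl-2 (67% to 68.4% against 66.1% to 67.3%) and in msl-1 (66% and 67.4% against 65.3% to 66.2%). The median log2 fold change of large minus that of small subunit genes was -0.08, 0.03, -0.19 and -0.19 in mutants of msl-2, of msl-1, of mle and of roX1 roX2, where the pooled SD between replicates was 0.07, 0.12, 0.09 and 0.07. Among autosomal members alone it was -0.05, 0.07, -0.17 and -0.15. The X holds 17% of the large and 12.5% of the small subunit genes. The mammalian counterparts of mRpS30 and mRpS18A lie in the large subunit; counted there, the differences were again -0.08, 0.03, -0.19 and -0.19, and the shares 71.3% to 73.7% and 70.1% to 73.3%.

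Among autosomal members, shorter genes tended to have lower log2 fold changes. Over the 59 genes the Spearman correlation of log2 fold change with exon length was 0.44, 0.37, 0.46 and 0.32 in mutants of msl-2, of msl-1, of mle and of roX1 roX2, against 0.16, -0.19, 0.03 and 0.02 over all autosomal genes. Members with at most 600 exon bases (12 genes) had medians of -0.36, 0.10, -0.30 and -0.11, and those with more than 900 (23 genes) -0.12, 0.37, 0.08 and 0.09. Over all autosomal genes, the 377 with at most 600 bases had medians of -0.11, -0.04, -0.18 and -0.11. The 7415 with more than 900 bases had 0.06, -0.07, 0.04 and 0.02. Short genes were thus also the lower ones outside the family in msl-2, mle and roX1 roX2 mutants. RNA integrity values were not among the sources used here, and the part of length in these results was not tested.

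The medians of members on chromosomes 2 and 3 were close to each other. CyO is a chromosome 2, carried by all heterozygous controls and by none of the mutants. Members on chromosome 2 had a median log2 fold change of -0.21 and those on chromosome 3 -0.19 in msl-2 mutants, 0.26 and 0.25 in msl-1 mutants, -0.05 and -0.08 in mle mutants, and -0.05 and 0.01 in roX1 roX2 mutants.

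The 2 mitochondrial ribosomal protein genes listed under other symbols were both called lower in msl-2 mutants and in no other mutant. The X-linked technical knockout (tko), which encodes a small subunit protein, fell from 115 ± 6.63 to 67.2 ± 16.8 CPM (SD, n = 3 and 4; log2 fold change -0.77 ± 0.17 SE, edgeR adjusted p = 0.00687). bonsai on 2R, also of the small subunit, fell from 62 ± 6.13 to 40.3 ± 7.38 CPM (SD, n = 3 and 4; log2 fold change -0.61 ± 0.16 SE, edgeR adjusted p = 0.0144). In that comparison 7.62% of all genes were called lower, and neither gene was called once the left-out library was added. The heterozygous stocks themselves differed for tko, which stood at 29.2 to 49.1 CPM in msl-1 and mle heterozygotes.

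Among genes that work beside the ribosome, those of import, folding and tRNA charging held most of the calls in msl-1 mutants. Of all genes tested, 10.4% were called higher and 12.7% lower there. Of 13 tested import and chaperone genes, 10 were called higher and 0 lower, with a median log2 fold change of 0.71; Lon, a protease of the matrix, rose by 1.19 ± 0.20 (SE, edgeR adjusted p = 1.11e-04) and Roe1, a cochaperone, by 1.16 ± 0.20 (SE, edgeR adjusted p = 2.51e-04). Of 18 tested aminoacyl-tRNA synthetases, which charge the tRNAs that the ribosome reads, 8 were called higher and 0 lower (median 0.53), among them LeuRS-m at 1.86 ± 0.23 (SE, edgeR adjusted p = 3.00e-06); GlyRS and HisRS of this list also serve the cytosol. Of 10 translation factors only mEFTu1, the elongation factor that delivers tRNAs, was called higher, from 207 to 500 CPM (edgeR adjusted p = 2.47e-04). Of 15 genes encoded in the mitochondrial genome, mt:Cyt-b and mt:CoII were called higher and none lower. All these calls rest on 2 msl-1 heterozygous libraries, and fits that left out 1 library were not examined for these lists.

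In msl-2 mutants, where 3.07% of all genes were called higher and 7.62% lower, no gene of the 5 lists was called higher, and those called lower were the X-linked Tim8, Tim9a, LysRS, scu and MTPAP. In mle mutants, where 4.06% were called higher and 8.96% lower, Lon, Roe1, LeuRS-m, AspRS-m, GluRS-m, mEFTu1 and PolG1 were called higher, and Tim8, Tim9a, LysRS, scu and mt:ATPase6 lower. In roX1 roX2 mutants, where 6.81% were called higher and 7.56% lower, Lon, Trap1, Roe1, LeuRS-m, AspRS-m, PolG1, GatA and mIF3 were called higher, and scu and mt:ATPase6 lower. PolG1, the catalytic subunit of the mitochondrial DNA polymerase, was called higher in every mutant but msl-2, and scu, an X-linked dehydrogenase that is also a subunit of the mitochondrial RNase P, was called lower in all 4. With all 21 libraries 9 import and chaperone genes, 9 synthetases, 2 translation factors, 4 genes of transcription, replication and RNA processing (PolG1, mtTFB2, Suv3 and mTerf3) and 4 mitochondrially encoded genes (mt:Cyt-b, mt:CoI, mt:CoII and mt:ATPase8) were called higher in msl-1 mutants. Called elsewhere were none of the 5 lists' genes in msl-2 mutants, Lon in mle mutants, and Lon, LeuRS-m, PolG1 and mIF3 in roX1 roX2 mutants, all higher; scu was then called in none of the 4.

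mIF3, the initiation factor that keeps the subunits apart, stood out in roX1 roX2 mutants. Its level there was 187 to 534 CPM, against 23.8 to 36.4 CPM in all heterozygous libraries (log2 fold change 3.63 ± 0.20 SE, edgeR adjusted p = 3.27e-11). The other mutants had 23.8 to 38.5 CPM. The roX1 roX2 stock has no control of its own background, so an effect of the mutations and a difference between stocks cannot be told apart.

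**Figure D5:**
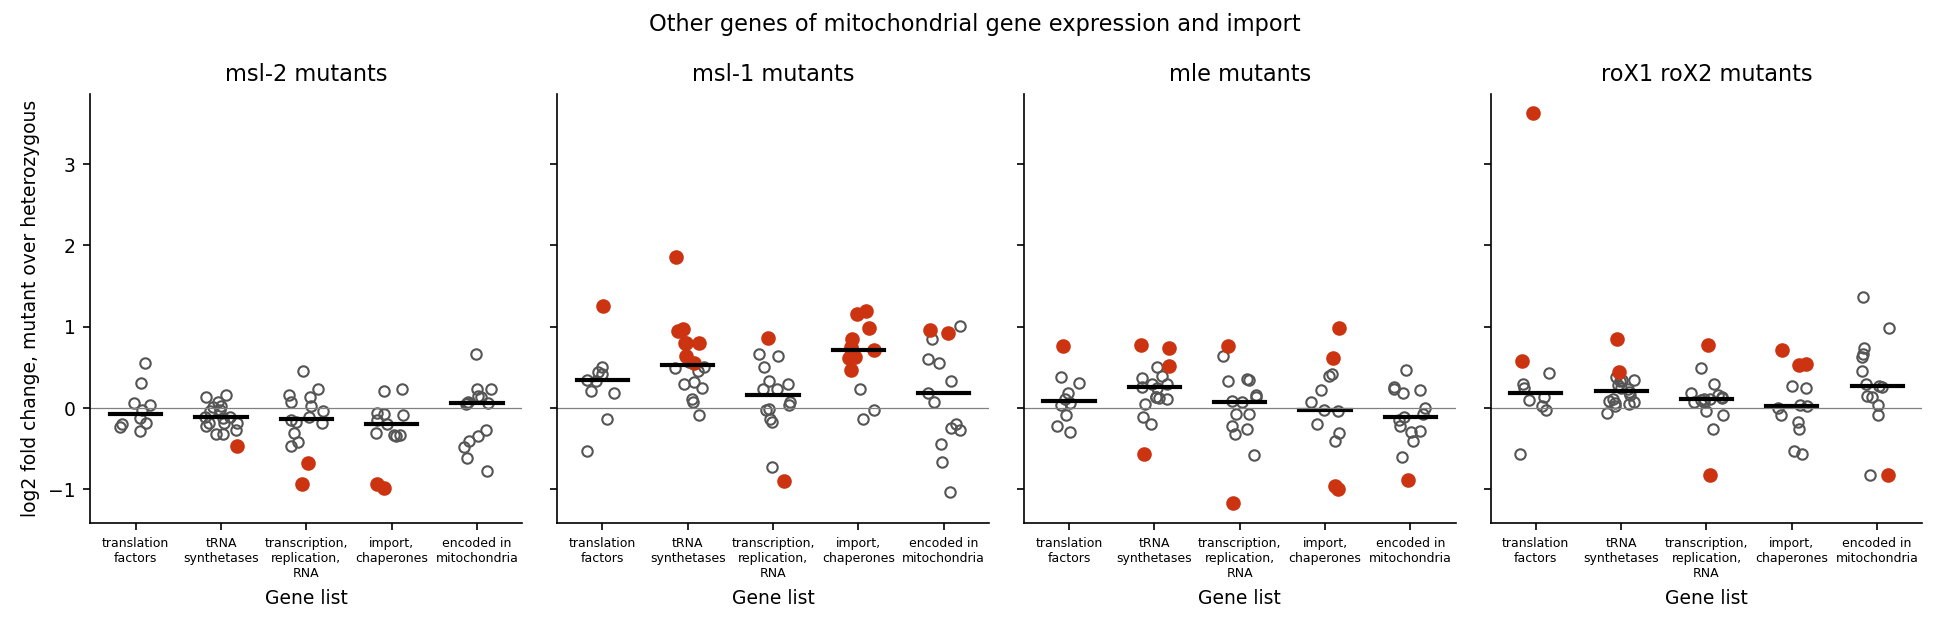
Log2 fold changes of tested genes in 5 lists of mitochondrial gene expression and import, 1 panel per mutant and 1 point per gene, red and filled where called, with medians as lines. The import and chaperone list has a median of 0.71 in msl-1 mutants, and the single point at 3.63 in roX1 roX2 mutants is mIF3.

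Markers of cell types moved with some of these comparisons. Of 7 tested wing disc markers 6 were called lower in msl-1 mutants, where their summed level was 1003 to 1075 CPM against 1850 and 1861, and 5 in mle mutants, at 1076 to 1327 CPM against 1548 and 2025. Of 8 larval muscle markers the list median was between 0.92 and 1.12 in all 4 mutants, with 1 call, for sls in msl-2 mutants, and summed levels there of 533 to 1255 CPM against 162 to 204. When the left-out library was added, that median was -0.49 for msl-1 and 0.35 for the roX1 roX2 mutants. Of 7 fat body markers Lsp2 was called higher in msl-2 mutants, where the summed level ran from 46.4 to 5175 CPM against 26.3 to 74.8, and of 6 neural and glial markers 3 were called lower in msl-1 mutants. The summed level of the neural and glial markers was not lower in msl-1 mutants, at 553 to 624 CPM against 539 and 562. Of the adult muscle precursor markers htl was called higher in msl-1 mutants, of the salivary gland markers Sgs7 lower in msl-2 mutants, and of those of hemocytes, trachea, gut and germline none in any mutant. With all 21 libraries, 3 of 4 trachea markers were called higher and 1 lower in msl-1 mutants, and 4 of 5 germline markers lower. In roX1 roX2 mutants 1 of 3 gut markers, Jon65Aiii, was then called higher. The summed gut markers reached 2943 CPM in 1 roX1 roX2 mutant library and at most 13.3 CPM in any library of the other groups; epsilonTry and Jon99Ci were at 0 in msl-1 mutants, and the salivary gland marker Sgs4 at 0 in msl-1 and mle heterozygotes and mle mutants. Their part in the differences of the ribosomal protein genes was not tested, and in whole discs fewer cells of a type and less RNA per cell cannot be told apart.

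With all 21 libraries, no member was called in msl-2, mle or roX1 roX2 mutants by edgeR, and DESeq2 called 0, 2 and 0. The shares of all genes called by edgeR were then 1.21%, 3.35% and 5.33%, and 38.2% in msl-1 mutants. Among the 70 members, 2, 4 and 1 had an unadjusted p under 0.05 in msl-2, mle and roX1 roX2 mutants. The common biological coefficient of variation was 0.362 in that fit and 0.21 in the fit of 20 libraries. Fold changes of X-linked members in msl-2 and mle mutants hardly changed between both fits (medians of -0.63 and -0.67 in place of -0.60 and -0.64), whereas in roX1 roX2 mutants, whose controls include the left-out library, the median was -0.36 in place of -0.46.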

How the data were processed

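Raw read counts of 21 libraries were deposited in 1 table, by FlyBase gene identifier and without normalisation. Per the labels, a stranded mRNA kit was used. STAR 2.6.1b, featureCounts of Subread 1.6.1, SAMtools 1.9, DESeq2 1.18.1 and 2 genome labels, dm6 and BDGP6, are named per the submitters' processing notes; the strand setting is not given in the sources used here. Genes were matched by identifier to the dm6 annotation for symbol, location and exon length; 306 of 17558 were not matched and held 5.53% of counts.

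Robust quasi-likelihood fits in edgeR 4.0.16 (R 4.3.3) gave 1 mean per group over 20 libraries and 10367 genes that passed filterByExpr, 70 of them members. TMM factors came from autosomal genes of arms 2L, 2R, 3L and 3R, with factors from 0.896 to 1.14. Benjamini-Hochberg adjustment ran over all genes tested, with calls under 0.05; the SE of a log2 fold change comes from that test. CPM uses the same factors; TPM divides by exon length. The script recovered known changes in counts simulated for msl-2 mutants. Those changes were larger than that of any member in that comparison, so the recovery of smaller changes was not examined. Alternatives were all 21 libraries (11420 genes), TMM on all genes, DESeq2 1.42.0, no expression filter, fits of only the groups compared, a replicate block, other roX1 roX2 controls, and each library left out. Depth limits genes of low level such as mRpL33.

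Replicate numbers recur across groups. Deviations of the 7 same-numbered pairs correlated from -0.21 to 0.17, over 0.1 in 1, so the numbers were not taken to pair samples. The members and gene lists were chosen with earlier results of these data known. Text names every X-linked member; up to 4 called autosomal members at each end of a comparison, or per difference by smallest p; the 4 highest and 4 lowest TPM; and members called in all 4 comparisons or in opposite directions. From the other lists it names up to 3 called genes per comparison and direction by smallest p, and the targeted genes. Other genes named were chosen after their values were seen.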

Additional observations from a re-analysis of the deposited data

Results flagged for a closer look

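For 9 members the log2 fold change in msl-1 mutants differed from that in msl-2 mutants by the edgeR test of the difference itself, each higher in msl-1. The differences on the log2 scale were 1.35 for mRpL52, 0.96 for mRpL19, 0.96 for the X-linked mRpL30, 0.95 for mRpL54, 0.91 for mRpL37, 0.88 for mRpS35, 0.83 for mRpS2, 0.82 for mRpL28 and 0.81 for mRpL23. None of the 9 was called without the msl-1 heterozygous replicate 3. Wing disc markers were called lower in msl-1 mutants (6 of 7) and not in msl-2 mutants (0 of 7), and the part of this in the differences was not tested.

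Among the 4 libraries of msl-2 mutants, 25 measures were examined for a library far from the others (the levels of the named members and 3 family sums or shares), and 0 were found; groups of 3 or fewer libraries were not examined.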

How the results depend on the processing

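The X minus autosomal difference of members was below 0 in all 4 mutants in every setting for which it was computed, DESeq2 not among them. It ran from -0.44 to -0.38 in msl-2, from -0.62 to -0.49 in msl-1, from -0.77 to -0.56 in mle and from -0.55 to -0.43 in roX1 roX2 mutants. It moved beyond the spread between replicates with msl-2 and mle heterozygotes as roX1 roX2 controls (-0.55) and, in mle, when libraries were left out (-0.77 to -0.57). Counts of called members depended on the processing. With all 21 libraries they were 0 in msl-2, 0 in mle and 0 in roX1 roX2 mutants and 17 in the difference msl-1 minus msl-2; with DESeq2 on all 21 they were 0, 2 and 0, with 26 in msl-1 mutants, 20 in that difference and 1 in msl-1 minus mle. TMM on all genes gave 3 and DESeq2 3 in msl-2 mutants, no expression filter 3 in roX1 roX2 mutants, and fits of only the groups compared 10 in msl-2 mutants and 18 in msl-1 minus msl-2. A replicate block took that difference from 9 to 5, and mRpS18A and mRpL17 in msl-1 and mRpL38 in roX1 roX2 mutants were not called with it. As the replicate numbers were not shown to pair samples, no weaker effect follows from this. With all 21 libraries edgeR called 38.2% of all genes in msl-1 mutants. Shares of all genes called were not computed for DESeq2, for fits of only the groups compared or for the other settings. The share beside the 17 is not given here. Those counts therefore have no background to be read against.

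Leaving out 1 library at a time gave 2 to 9 calls for msl-2, 1 to 15 for msl-1, 4 to 12 for mle and 3 to 7 for roX1 roX2, 0 to 15 in msl-1 minus msl-2 and 0 to 4 in msl-1 minus mle. The libraries behind these ranges are named beside the results. The large minus small subunit difference ran from -0.15 to -0.03 in msl-2 and from -0.20 to -0.12 in roX1 roX2 mutants when libraries were left out, and without members that share over 10% of their exon bases it was -0.28 in mle mutants, an alternative chosen after seeing the data, as were DESeq2 on 21 libraries and the other assignment of mRpS30 and mRpS18A. No named gene that was called changed direction. The causes of these changes were not tested, except that fewer libraries or a library with a wide spread enter those fits by construction.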
